A study of Mus musculus with 16 samples.

Results

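The mitochondrial ribosomal protein genes were followed in the striatum of mice whose astrocytes expressed bARK or its mutant bARK(D110A). They were taken as all symbols of the count table that start with Mrpl or Mrps followed by a digit. The rule took 77 of the 24058 gene symbols, and it used no measured value. By their known place in the ribosome, 49 encode proteins of the large subunit and 24 of the small subunit, and 3 (Mrps18a, Mrps18b and Mrps18c) are the paralogs of bacterial S18. The last, Mrps36, carries the family name but is known as a component of the 2-oxoglutarate dehydrogenase complex of the citric acid cycle. No Mrpl or Mrps pseudogene has a symbol of its own in the table.

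RNA was sequenced from whole striata of wild-type C57BL/6J male mice aged 9 weeks. bARK, derived from a β-adrenergic receptor kinase, dampens signalling through Gq proteins, and bARK(D110A), which carries a substitution, served as its comparison. Each construct gave 4 libraries of RNA from the cleared lysate of the tissue, called input, and 4 of RNA bound to ribosomes that were pulled down through a hemagglutinin tag in astrocytes, called IP. All 4 groups (input and IP of bARK(D110A), input and IP of bARK) shared strain, sex, age, tissue and an expressed construct. No group without a construct was analysed here, and the promoter that drives expression is not given in the sources used here. Libraries of each construct are numbered from 1 to 4 in the labels, which do not state that each number stands for its own mouse, so the p-values rest on how far these samples spread, which may be technical in part.

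Mitochondrial ribosomes are assembled in the mitochondrial matrix from rRNAs encoded by mitochondrial DNA and proteins that are all encoded in the nucleus, translated by cytosolic ribosomes and imported. They make only the few hydrophobic subunits of the respiratory chain and ATP synthase that mitochondrial DNA still encodes. Part of their proteins descends from the bacterial ribosome and part was gained in the mitochondrial lineage. What the IP aims at for these genes is therefore mRNA on cytosolic ribosomes of the tagged cells, not mitochondrial translation itself.

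Library totals ran from 27807178 to 38003523 counted reads among inputs and from 41469718 to 51432173 among IPs, and the 77 genes took 0.166% to 0.177% of them. Levels are given in CPM, counts scaled to a common library total with the trimmed mean of M values (TMM), and the median coefficient of variation of a member among the 4 libraries of a group lay between 4.78% and 5.59%. The 10 astrocyte markers examined, Aldh1l1 and Slc1a2 among them, all rose in the IP of both constructs, with a summed level of 5093 to 5982 CPM in the inputs and 27483 to 33822 CPM in the IPs of bARK(D110A), and 5581 to 5967 and 32475 to 38905 CPM in those of bARK. All 10 microglial markers fell, from 621 to 1074 CPM to 19.7 to 26.6 CPM in bARK(D110A) and from 651 to 814 CPM to 20.1 to 30.6 CPM in bARK. All 10 endothelial markers fell too, from 156 to 183 CPM to 24.8 to 26.8 CPM and from 150.3 to 184 CPM to 23.0 to 28.9 CPM, and so did all 10 spiny neuron markers, from 8446 to 10142 CPM to 4263 to 5708 CPM and from 9446 to 11325 CPM to 4308 to 5008 CPM. Of 10 pan-neuronal markers 3 rose and 2 fell in bARK(D110A) and 2 rose and 4 fell in bARK, and summed they stood at 4840 to 5565 CPM in the inputs and 4634 to 5857 CPM in the IPs of bARK(D110A), and at 5358 to 5498 and 4677 to 5155 CPM in bARK. Of 10 oligodendrocyte markers 1 fell in bARK(D110A) and 1 rose and 1 fell in bARK, and these ranges were 5997 to 10071 and 4272 to 11388 CPM, and 6310 to 6990 and 5548 to 8614 CPM. IP RNA was thus enriched for astrocyte mRNA but still held mRNA with pan-neuronal and oligodendrocyte markers. The IP level of a gene expressed in many cell types may therefore come in part from cells other than astrocytes. No marker was at 0 in a group, and the part of these differences in the results below was not tested. In bulk RNA, fewer cells of a type and less RNA per cell cannot be told apart.

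All 77 genes had reads in every library and passed the filter on low counts in every comparison. The lowest count of a member in a library was 10, for Mrpl23, whose 16 libraries held 456 reads in all. By CPM averaged over all libraries, which is not corrected for length, Mrpl3, Mrpl10, Mrpl9, Mrpl50 and Mrpl51 stood highest and Mrps18b, Mrps33, Mrpl14, Mrps36 and Mrpl23 lowest. Mrpl3, a protein of the large subunit core that is mutated in an inherited defect of oxidative phosphorylation in humans, held 43.6 ± 3.25 CPM (SD, n = 4) in the bARK(D110A) inputs and 45.7 ± 1.05 CPM in the bARK inputs.

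Levels of different genes are compared per kilobase of coding sequence, over the 8 input libraries. On that scale Mrps21, a small protein of the small subunit, stood first at 101 CPM per coding kilobase, and it was also first per kilobase of exon, at 54.3. Mrpl41 (71.7), Mrpl30 (71.2), Mrpl33 (71.0) and Mrpl20 (61.6) were the others that ranked among the 10 highest on both length scales. The values of Mrpl41, Mrpl30 and Mrpl33 differed by less than the spread of a member among libraries. At the other end Mrpl23 held 2.49 CPM per coding kilobase and Mrps36 held 7.96, with Mrps5 at 12.6 and Mrps35 at 14.9 also among the 10 lowest on both scales. Of these genes Mrps21, Mrpl33, Mrpl20 and Mrpl23 were lower in the IP and Mrpl41, Mrps5 and Mrps35 higher, by the edgeR test described further on. By the same test Mrpl30 was lower in bARK(D110A) (log2 fold change -0.14, adjusted p = 0.0264). In bARK it did not pass (-0.08, adjusted p = 0.18).

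The regions around the transcription starts of the genes were searched for 3 motifs of factors known to control nuclear genes for mitochondrial proteins. NRF1 is nuclear respiratory factor 1, the ETS core is the binding core of GABP, also named nuclear respiratory factor 2, and YY1 is a zinc finger factor. Windows of 300 bases, from 250 before to 50 after each RefSeq start on GRCm38.p6, were on hand for 68 of the 77 genes, with 74 windows in all, and both strands were read. The NRF1 motif was searched as GCGCANGCG and stood in the windows of 16 of the 68 genes (23.5%) and of 7.03% of the 27025 genes with a window. The ETS core CCGGAAGT stood in 12 of the members (17.6%) and 4.31% of all genes, and AANATGGCG, for YY1, in 10 members (14.7%) and 2.76% of all genes. At least 1 of the 3 was found in 35 members (51.5%) and in 12.7% of all genes. The 27025 genes were not limited to protein-coding genes or to genes with reads here, while all members are protein-coding and had reads. The sets are therefore unlike, and whether the excess is particular to these genes was not tested.

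Printed here are 6 start regions that carry a match, of 4 genes that were higher in the IP of both constructs (Mrpl9, Mrps22, Mrpl45 and Mrps30, the last for YY1) and of 2 that were lower (Mrps21 and Mrps26). Each runs 5′ to 3′ on the gene's strand from 100 bases before the RefSeq start to the last of 30 bases from the start on, with matches in capitals. Mrpl9 (chr3:94443236-94443365, plus strand) has NRF1 matches on both strands that overlap and begin 28 and 27 bases before the start.
Mrpl9: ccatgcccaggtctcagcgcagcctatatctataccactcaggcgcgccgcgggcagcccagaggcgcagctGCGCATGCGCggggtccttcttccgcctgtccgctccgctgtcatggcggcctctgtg
Mrpl45 (chr11:97315616-97315745, plus strand) shows 2 NRF1 matches, and its window holds another that begins 120 bases before the start.
Mrpl45: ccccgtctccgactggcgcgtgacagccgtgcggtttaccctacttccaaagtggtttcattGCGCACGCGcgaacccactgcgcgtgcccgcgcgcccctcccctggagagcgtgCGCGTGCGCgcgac
Mrps22 (chr9:98601650-98601779, minus strand) has the ETS core 11 bases before the start.
Mrps22: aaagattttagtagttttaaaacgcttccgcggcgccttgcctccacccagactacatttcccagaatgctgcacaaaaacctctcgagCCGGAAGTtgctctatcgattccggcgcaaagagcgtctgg
Mrps30 (chr13:118387223-118387352, minus strand) has the YY1 motif from 15 bases after the start.
Mrps30: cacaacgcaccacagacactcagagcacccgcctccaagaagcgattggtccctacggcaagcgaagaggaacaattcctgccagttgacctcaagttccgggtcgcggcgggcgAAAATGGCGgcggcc
Mrps26 (chr2:130563657-130563786, plus strand) has the ETS core on the other strand and 2 overlapping NRF1 matches across the start.
Mrps26: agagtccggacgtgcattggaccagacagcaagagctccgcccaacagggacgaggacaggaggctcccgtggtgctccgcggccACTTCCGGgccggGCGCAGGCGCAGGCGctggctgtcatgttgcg
Mrps21 (chr3:95871485-95871614, minus strand) has an NRF1 match on the other strand that begins 90 bases before the start.
Mrps21: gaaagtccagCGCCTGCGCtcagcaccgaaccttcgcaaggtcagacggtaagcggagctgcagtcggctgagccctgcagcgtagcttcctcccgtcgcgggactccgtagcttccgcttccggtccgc
Matches stood in both kinds of gene: 13 of the 30 genes with a window that were higher in the IP of both constructs had a match, and so did 6 of the 10 that were lower in both. A match is a description of letters in a window, and binding was not measured.

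IP was then set against input within each construct, which asks whether the share of these mRNAs in the IP differed from their share in the whole tissue. By the markers above, the IP was enriched for astrocyte mRNA and not confined to it. Tests are edgeR's quasi-likelihood F test with Benjamini-Hochberg adjustment over the 15850 genes that passed the filter, a gene is called at an adjusted p below 0.05, and ± after a log2 fold change is its standard error with 4 libraries a group. In bARK(D110A), 38 of the 77 genes rose in the IP and 14 fell, where 36.5% and 37.2% of all genes tested did. In bARK, 42 rose and 12 fell, against 37.6% and 38.1% of all genes. The median log2 fold change of the members was 0.16 in bARK(D110A) and 0.17 in bARK, and that of all genes tested was -0.01 in both.

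The split between higher and lower depended on the scaling. With library size as the only scaling, 23 rose and 23 fell in bARK(D110A), and 29 rose and 22 fell in bARK. That scaling moved the median of all genes to -0.16 and -0.15. A change of scaling shifts all genes by nearly the same amount. The members' median therefore had to stay 0.17 above that of all genes, as with TMM, and this gap is no check of the result. Directions below are therefore relative to the TMM scale. Reads from the 77 genes were close to the same share of the library in every group: the summed level was 1617 ± 31.0 (SD, n = 4) and 1794 ± 61.3 CPM in bARK(D110A) input and IP and 1637 ± 32.5 and 1839 ± 48.2 CPM in bARK with TMM, but 1721 ± 28.6, 1711 ± 46.3, 1707 ± 42.8 and 1737 ± 22.2 CPM with library size alone.

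**Figure D1:**
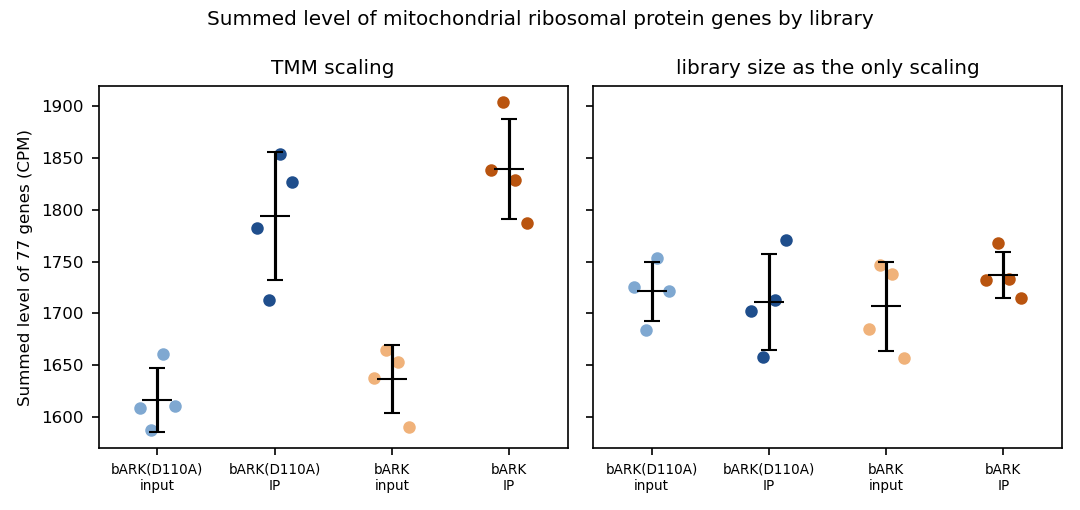
Summed level of the 77 mitochondrial ribosomal protein genes in each of 16 libraries, in CPM on an axis that does not start at 0, with TMM scaling on the left and library size alone on the right; points are libraries, bars are mean ± SD of 4. With TMM every IP library lies above every input library, between 1713 and 1903 CPM against 1588 to 1665 CPM, and with library size alone the groups overlap.

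Shifts were small in most members. In both constructs 75 of the 77 genes (97.4%) had a log2 fold change between -0.75 and 0.75, compared with 60.5% of all genes tested, and the median size of the change was 0.24 in bARK(D110A) and 0.25 in bARK, against 0.48 and 0.52 for all genes. The exceptions were Mrps6 and Mrpl23. All genes tested were not matched to the members in level, and their median standard error was larger, at 0.086 against 0.060 in either construct. Whether small shifts are particular to the members was not tested. The constructs gave the same picture gene by gene: 37 members rose in both, 11 fell in both, 19 were called in neither and none was called in opposite directions, where 34.4% of all genes rose in both and 34.7% fell in both. Across the 77 genes, which are not independent replicates, the fold changes of the constructs had a Pearson correlation of 0.92 and a Spearman correlation of 0.93. CPM of the 4 IP and 4 input libraries did not overlap for 35 higher and 11 lower members in bARK(D110A) (31.3% and 32.5% of all genes) and for 42 and 11 in bARK (36.1% and 35.8%).

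**Figure D2:**
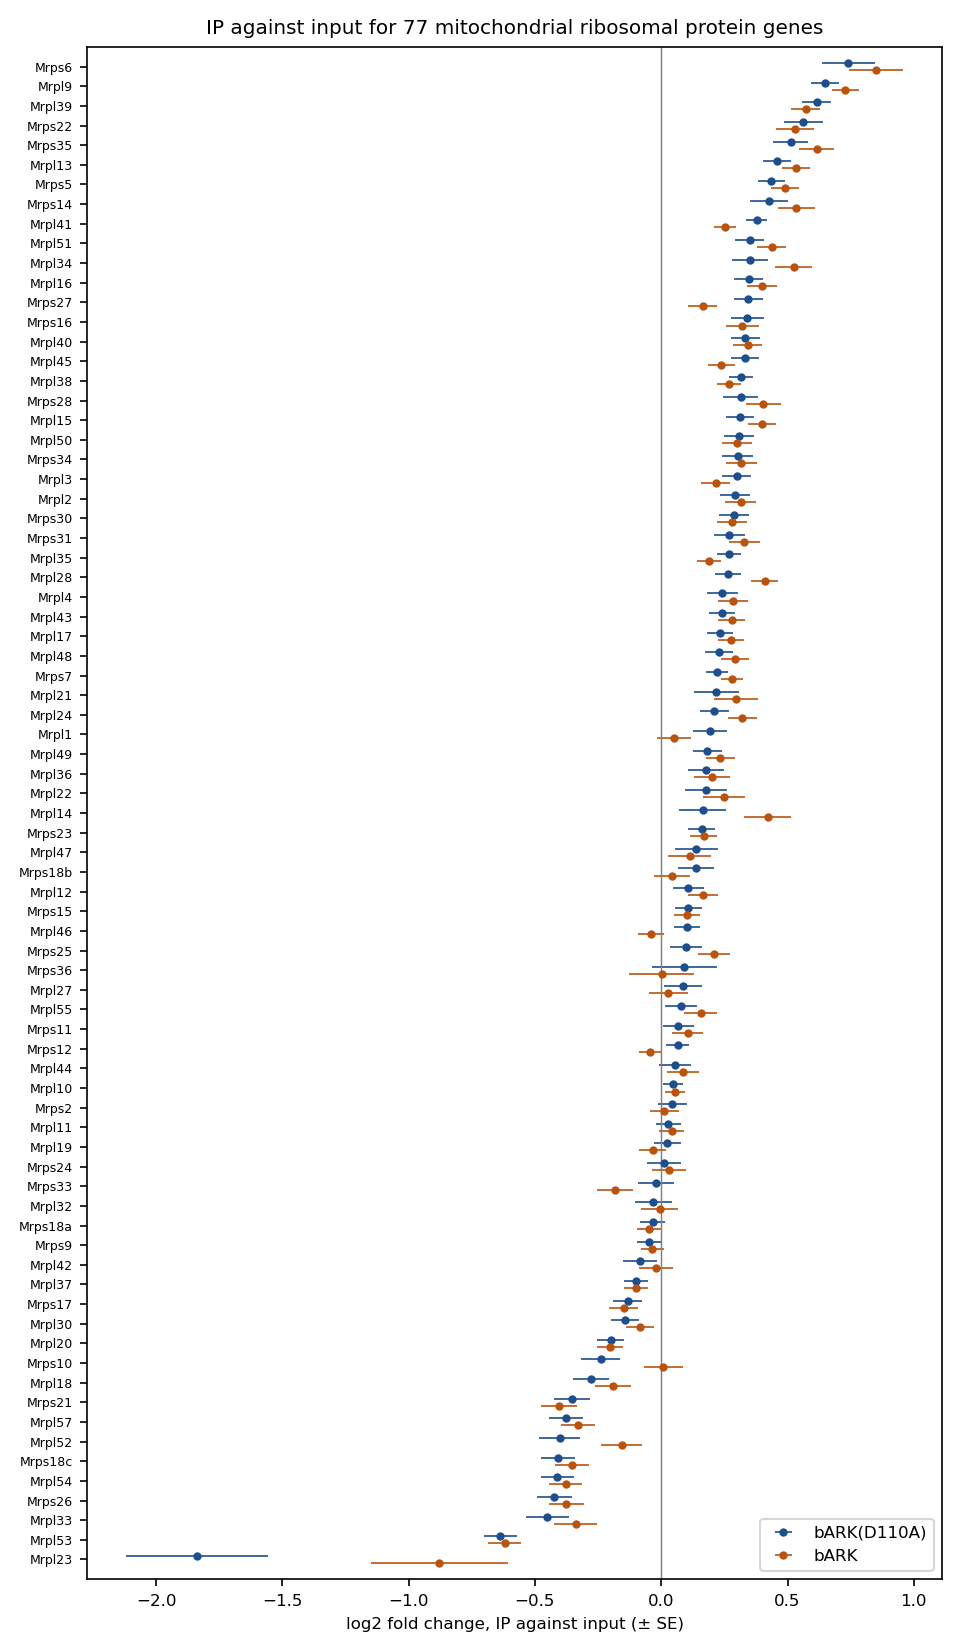
Log2 fold change of IP against input with TMM scaling for each of the 77 genes, with its standard error, in bARK(D110A) (blue) and bARK (orange), ordered by the bARK(D110A) value. Mrps6 is highest at 0.74 and 0.85, Mrpl23 lowest at -1.84 and -0.88, and 75 genes lie between -0.75 and 0.75; with library size alone the calls split 23 to 23 and 29 to 22.

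By subunit, 26 of the 49 large subunit genes rose and 9 fell in bARK(D110A), with a median of 0.18, and 29 rose and 7 fell in bARK, with a median of 0.21. Of the 24 small subunit genes 12 rose and 4 fell in bARK(D110A) and 13 rose and 4 fell in bARK, with medians of 0.13 and 0.17. Split by descent, 15 of the 30 large subunit genes with a bacterial homologue and 11 of the 19 without one rose in bARK(D110A), and 18 and 11 in bARK. In the small subunit these were 6 of 15 with a homologue in either construct, and 6 and 7 of 9 without. Among all genes tested, 36.5% rose and 37.2% fell in bARK(D110A), and 37.6% and 38.1% in bARK. The small subunit genes with a homologue rose at 40%, near those shares. No subset was tested against another.

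Ranked by the smaller of their values in the 2 constructs, and taken among members called in both with no overlap between IP and input, the large subunit genes that rose most were Mrpl9, Mrpl39, Mrpl13, Mrpl51 and Mrpl34. Mrpl9, a homologue of the bacterial protein at the base of the L1 stalk (chr3:94443318-94451130), stood at 28.9, 33.1, 29.99 and 29.1 CPM in the bARK(D110A) inputs and at 46.5, 45.3, 49.5 and 48.4 CPM in the IPs. In bARK its inputs held 30.4, 30.8, 30.2 and 27.4 CPM and its IPs 47.3, 52.1, 50.1 and 47.4 CPM. Every IP library was above every input library, and the log2 fold changes were 0.65 ± 0.05 (SE, adjusted p = 9.33e-09) and 0.73 ± 0.05 (SE, adjusted p = 1.74e-09). Its exons share bases with Oaz3, an antizyme gene of the testis on the opposite strand that did not pass the filter here.

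Mrpl39, a protein without a bacterial homologue (chr16:84717576-84735742), stood at 22.8, 22.2, 23.4 and 25.2 CPM in the bARK(D110A) inputs and at 34.1, 33.5, 37.01 and 38.6 CPM in the IPs. The bARK inputs held 22.3, 24.7, 22.9 and 23.3 CPM and the IPs 36.3, 35.4, 34.6 and 32.2 CPM. The ranges were well apart in both constructs, with log2 fold changes of 0.61 ± 0.06 (SE, adjusted p = 4.56e-08) and 0.57 ± 0.06 (SE, adjusted p = 1.03e-07). Mrpl13, a core protein of bacterial descent (chr15:55534094-55557748), rose from 21.05 ± 1.06 to 28.9 ± 1.57 CPM (SD, n = 4) in bARK(D110A), a log2 fold change of 0.46 ± 0.06 (SE, adjusted p = 1.14e-06). In bARK it rose by 0.53 ± 0.06 (SE, adjusted p = 1.63e-07). Mrpl13 shares exon bases with Mtbp on the opposite strand, which held 3.47 CPM in the bARK(D110A) inputs.

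Mrpl51 (chr6:125191801-125196269), a protein of the mitochondrial lineage, rose from 30.8 ± 1.36 to 39.2 ± 2.97 CPM in bARK(D110A) and by 0.44 ± 0.06 (SE, adjusted p = 2.19e-06) in bARK. Mrpl34 (chr8:71464959-71465747), a short protein of bacterial descent, rose by 0.35 ± 0.07 (SE, adjusted p = 0.000302) in bARK(D110A) and by 0.52 ± 0.07 (SE, adjusted p = 4.03e-06) in bARK. Mrpl3 and Mrpl50, both among the members with the most reads, also rose in both constructs. Mrpl3 went from 43.6 ± 3.25 to 53.6 ± 2.64 CPM in bARK(D110A), a log2 fold change of 0.30 ± 0.06 (SE, adjusted p = 0.000139), and by 0.21 ± 0.06 (SE, adjusted p = 0.00232) in bARK, where library size alone gave 0.07 and no call (adjusted p = 0.212). Mrpl50 rose by 0.31 ± 0.06 (SE, adjusted p = 0.000166) and 0.30 ± 0.06 (SE, adjusted p = 0.000192). Mrpl10, which with Mrpl12 forms the stalk of the large subunit, did not pass: its log2 fold changes were 0.05 ± 0.04 (SE, adjusted p = 0.28) and 0.06 ± 0.04 (SE, adjusted p = 0.208), and in bARK(D110A) library size alone turned it to -0.11 (adjusted p = 0.0163).

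In the small subunit Mrps6, Mrps22, Mrps35, Mrps5 and Mrps14 rose most by the same ranking. Mrps6 (chr16:92058270-92112227), which binds the platform of the small subunit, stood at 9.87, 10.1, 10.5 and 11.5 CPM in the bARK(D110A) inputs and at 18.4, 14.8, 17.1 and 19.7 CPM in the IPs. The bARK inputs held 8.76, 10.9, 13.05 and 10.3 CPM and the IPs 17.6, 19.9, 20.4 and 19.8 CPM. Each IP library was above each input library, with log2 fold changes of 0.74 ± 0.11 (SE, adjusted p = 7.51e-06) and 0.85 ± 0.11 (SE, adjusted p = 1.31e-06). Mrps6 shares exon bases on the same strand with Slc5a3, the sodium and myo-inositol cotransporter gene that lies within it. Slc5a3 held 77.3 CPM in the bARK(D110A) inputs and itself rose by 0.47 ± 0.11 (SE, adjusted p = 0.000816) and 0.37 ± 0.11 (SE, adjusted p = 0.00514), and how reads were divided between the pair is uncertain.

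Mrps22 (chr9:98588730-98601660), a protein of the mitochondrial lineage whose mutation causes an oxidative phosphorylation disorder in humans, has no such overlap. It stood at 14.5, 16.2, 16.1 and 17.1 CPM in the bARK(D110A) inputs and at 21.7, 21.4, 24.7 and 26.7 CPM in the IPs. Its bARK inputs held 16.7, 17.5, 17.4 and 15.8 CPM and its IPs 26.2, 23.9, 25.05 and 22.1 CPM. The groups did not overlap, and the log2 fold changes were 0.56 ± 0.08 (SE, adjusted p = 3.92e-06) and 0.53 ± 0.08 (SE, adjusted p = 7.25e-06). Mrps35 (chr6:147042764-147073991), also of the mitochondrial lineage, rose by 0.51 ± 0.07 (SE, adjusted p = 3.65e-06) and 0.62 ± 0.07 (SE, adjusted p = 3.55e-07). Mrps5 (chr2:127587222-127606829), whose bacterial homologue guards the fidelity of decoding, rose by 0.44 ± 0.05 (SE, adjusted p = 1.42e-06) and 0.49 ± 0.05 (SE, adjusted p = 3.1e-07). For Mrps14 (chr1:160195215-160202170), a protein of the head of the small subunit, the rises were 0.43 ± 0.07 (SE, adjusted p = 6.45e-05) and 0.54 ± 0.07 (SE, adjusted p = 5.05e-06).

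Of the 15850 genes tested, 4653 were higher and 4685 lower in both constructs with no overlap between IP and input. Among the members 35 were higher in that way. Fewer members fell, and 8 of them did so in both constructs with no overlap between IP and input. In the large subunit these were Mrpl53, Mrpl54, Mrpl33, Mrpl57 and Mrpl20. Mrpl53 (chr6:83109040-83109939), a protein of the mitochondrial lineage, stood at 17.7, 16.7, 17.1 and 16.3 CPM in the bARK(D110A) inputs and at 11.6, 11.02, 11 and 9.92 CPM in the IPs. In bARK the inputs held 17.3, 17, 15.98 and 15.6 CPM and the IPs 10.6, 11.1, 11.4 and 9.70 CPM. Its log2 change was a fall by 0.64 ± 0.07 (SE, adjusted p = 1.33e-07) in bARK(D110A) and by 0.62 ± 0.07 (SE, adjusted p = 1.74e-07) in bARK.

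Mrpl54 (chr10:81264713-81266934), of the same lineage, stood at 15.1, 14.98, 15.6 and 16.2 CPM in the bARK(D110A) inputs and at 12.4, 10.1, 12.3 and 11.7 CPM in the IPs. Its bARK values were 16.1, 14.9, 15.5 and 14.5 CPM in the inputs and 11.1, 12.2, 11.5 and 12.2 CPM in the IPs. Every IP library was below every input library, and on the log2 scale it fell by 0.41 ± 0.07 (SE, adjusted p = 2.98e-05) and by 0.38 ± 0.07 (SE, adjusted p = 6.65e-05). Mrpl33 (chr5:31596935-31664384), with a coding sequence of 195 bases the shortest member, fell by 0.45 ± 0.08 (SE, adjusted p = 0.000134) and by 0.34 ± 0.08 (SE, adjusted p = 0.00167). Mrpl57 (chr14:57826234-57829296) fell by 0.38 ± 0.07 (SE, adjusted p = 7.95e-05) and by 0.33 ± 0.07 (SE, adjusted p = 0.000301), and Mrpl20 (chr4:155802878-155809975), known in bacteria for its part in early assembly of the large subunit, by 0.20 ± 0.05 (SE, adjusted p = 0.00255) and by 0.20 ± 0.05 (SE, adjusted p = 0.00214).

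Small subunit genes that fell in this way were Mrps26 and Mrps21, with Mrps18c of the S18 family beside them. Mrps26 (chr2:130563742-130568695), a protein of the mitochondrial lineage, stood at 24.9, 26.4, 26.6 and 24.5 CPM in the bARK(D110A) inputs and at 18.4, 18.4, 20.7 and 18.8 CPM in the IPs. Its bARK inputs held 24.8, 23.6, 30.4 and 26.8 CPM, the third of them well above the rest, and its IPs 19.7, 21.1, 20.2 and 20.4 CPM. On the log2 scale it fell by 0.42 ± 0.07 (SE, adjusted p = 2.95e-05) and by 0.38 ± 0.07 (SE, adjusted p = 9.69e-05). Mrps21 (chr3:95862634-95871519), the member with the highest level per length, stood at 24.6, 23.6, 26.8 and 26.5 CPM in the bARK(D110A) inputs and at 18.9, 19.01, 22.1 and 19.6 CPM in the IPs. It fell by 0.35 ± 0.07 (SE, adjusted p = 0.00027) there and by 0.40 ± 0.07 (SE, adjusted p = 6.47e-05) in bARK. The start windows of Mrps26 and Mrps21 held NRF1 matches, as did that of Mrpl9, which rose.

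**Figure D3:**
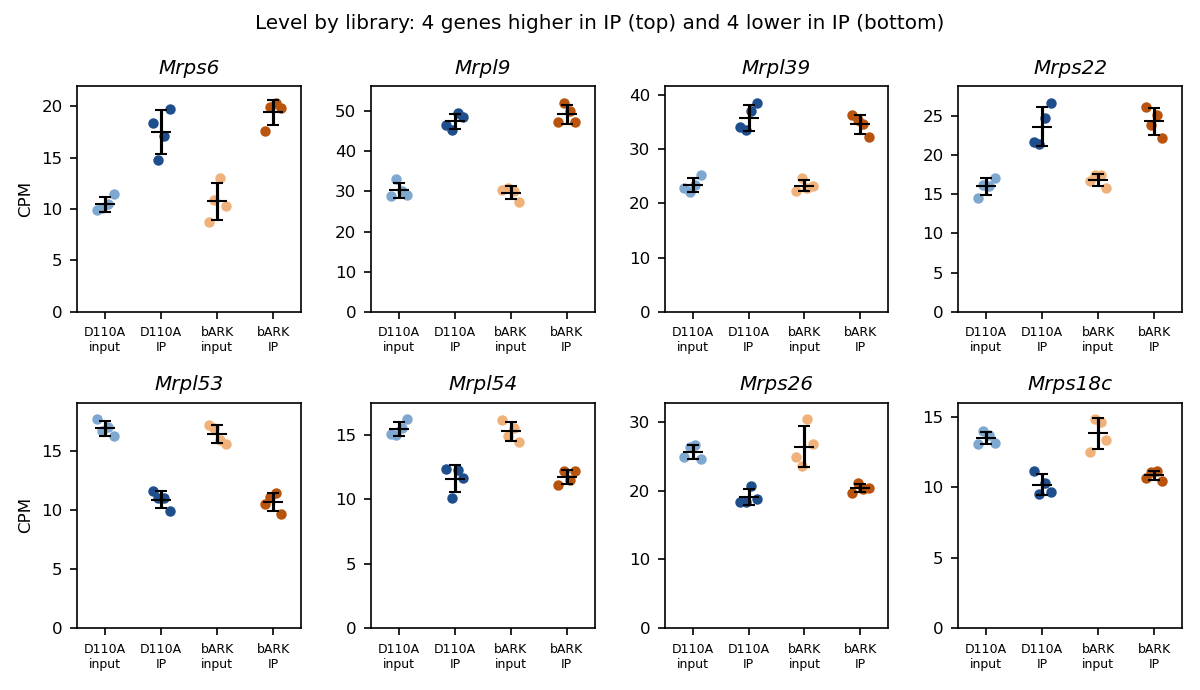
CPM with TMM scaling in every library for 4 genes higher in the IP (top) and 4 lower in it (bottom), on axes that start at 0; points are libraries and bars are mean ± SD of 4. In each panel the IP and input libraries of a construct are apart, and the constructs lie at like levels.

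The 3 S18 paralogs are known to occupy different sites, Mrps18a in the large subunit and Mrps18b and Mrps18c in the small one. Mrps18c (chr5:100798627-100804471) stood at 13.1, 14.04, 13.7 and 13.2 CPM in the bARK(D110A) inputs and at 11.2, 9.54, 10.3 and 9.70 CPM in the IPs, a log2 fall by 0.41 ± 0.07 (SE, adjusted p = 3.88e-05), and it fell by 0.35 ± 0.07 (SE, adjusted p = 0.000158) in bARK. Mrps18a did not pass with TMM, at -0.03 ± 0.05 (SE, adjusted p = 0.549) and -0.05 ± 0.05 (SE, adjusted p = 0.391), and with library size alone it was called lower, by -0.19 in both constructs. Mrps18b had 0.14 ± 0.07 (SE, adjusted p = 0.0913) and 0.04 ± 0.07 (SE, adjusted p = 0.613), and leaving out the third bARK(D110A) input raised the former to 0.20 and a call.

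Mrpl23 (chr7:142532686-142540747), a protein near the exit of the peptide tunnel, had the fewest reads and the largest difference. Its bARK(D110A) inputs held 44, 36, 49 and 34 reads and the IPs 14, 10, 21 and 16, or 1.40, 1.02, 1.24 and 1.09 against 0.285, 0.231, 0.458 and 0.345 CPM. In bARK the inputs held 23, 27, 42 and 48 reads and the IPs 33, 14, 24 and 21, or 0.702, 0.926, 1.05 and 1.28 against 0.761, 0.326, 0.611 and 0.464 CPM. The groups were apart in bARK(D110A), where it fell by 1.84 ± 0.28 (SE, adjusted p = 1.5e-05), and overlapped in bARK, where it fell by 0.88 ± 0.27 (SE, adjusted p = 0.00743). GENCODE lists a processed pseudogene of Mrpl23, and how reads of the pair were assigned is uncertain, as it is for Mrpl48 and Mrps36, which have pseudogenes too.

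Other members named for their roles had smaller differences. Mrps12, the decoding centre protein whose bacterial homologue is the target of streptomycin resistance mutations, did not pass, at 0.06 ± 0.04 (SE, adjusted p = 0.195) and -0.04 ± 0.04 (SE, adjusted p = 0.389), though library size alone called it lower in bARK (-0.19, adjusted p = 0.00182). Mrpl12, a stalk protein that also binds the mitochondrial RNA polymerase, had 0.11 ± 0.06 (SE, adjusted p = 0.112) in bARK(D110A), where it passed without the second or without the third input (0.15 each). In bARK it rose by 0.17 ± 0.06 (SE, adjusted p = 0.0182), but not with library size alone (0.02, adjusted p = 0.73), at 1 CPM or more in 4 libraries (0.12, adjusted p = 0.0625), without the fourth input (0.12) or without the first IP (0.14). Mrps30, a large subunit protein in spite of its name, rose by 0.29 ± 0.06 (SE, adjusted p = 0.000321) and 0.28 ± 0.06 (SE, adjusted p = 0.000425), with no call in either by library size alone (0.13 and 0.14). Mrpl45, which lies at the tunnel exit and ties the ribosome to the inner membrane, rose by 0.33 ± 0.05 (SE, adjusted p = 3.49e-05) and 0.24 ± 0.05 (SE, adjusted p = 0.000812), the latter not called by library size alone (0.09, adjusted p = 0.103). Mrps36, the member outside the ribosome, held 2.36 ± 0.199 CPM in the bARK(D110A) inputs and 2.51 ± 0.225 CPM in the IPs and did not pass, at 0.09 ± 0.13 (SE, adjusted p = 0.537) and 0.00 ± 0.13 (SE, adjusted p = 0.991).

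Among the members with the fewest reads, Mrps33 was not called in bARK(D110A), at -0.02 ± 0.07 (SE, adjusted p = 0.81), except with library size alone (-0.18, adjusted p = 0.0357). In bARK it fell by 0.18 ± 0.07 (SE, adjusted p = 0.0306), a call that did not hold without a filter (-0.18, adjusted p = 0.0531), without the first input (-0.15), the second IP (-0.18) or the fourth IP (-0.17). Mrpl14 had 0.16 ± 0.09 (SE, adjusted p = 0.119) in bARK(D110A), with a call without the second input (0.22), and rose by 0.42 ± 0.09 (SE, adjusted p = 0.000619) in bARK.

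Longer coding sequences went with higher IP levels among the members. The Spearman correlation of coding length with the log2 fold change over the 77 genes was 0.35 in bARK(D110A) and 0.31 in bARK, against 0.03 and 0.00 over all genes tested that have a coding length (14268 genes). Other lists showed it too: over 82 nuclear oxidative phosphorylation genes it was 0.56 and 0.54, and over 78 cytosolic ribosomal protein genes 0.24 and 0.27. With the length of all exons it was 0.32 and 0.28, and with GC content -0.09 and -0.04. Over all genes tested, 36.5% rose and 37.2% fell in bARK(D110A), and 37.6% and 38.1% in bARK. The 26 members with the shortest coding sequences, 195 to 477 bases, were near those shares. Of them 9 rose and 10 fell in bARK(D110A) and 11 rose and 10 fell in bARK. The middle 25, of 480 to 753 bases, had 13 that rose and 4 that fell in bARK(D110A) and 16 and 2 in bARK. In the longest 26, of 756 to 1326 bases, 16 rose in bARK(D110A) and 15 in bARK, and none was called lower in either with TMM. That depended on the scaling. With library size alone, Mrpl10 (786 bases) was called lower in bARK(D110A) (-0.11) and Mrpl46 (849 bases) in bARK (-0.18). Only members named by the fixed rule were looked up singly with that scaling, so other long members may have been called lower too. With TMM the median log2 fold changes of the members were 0.07, 0.18 and 0.27 in bARK(D110A) and -0.01, 0.21 and 0.23 in bARK, from short to long. Other genes were grouped by the same limits, but with no lower limit for the short range. They had medians of -0.12, 0.04 and 0.05 in bARK(D110A) and -0.07, 0.06 and 0.07 in bARK. These are descriptions across genes that share libraries, and the part of fragment size or RNA quality in them was not tested.

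**Figure D4:**
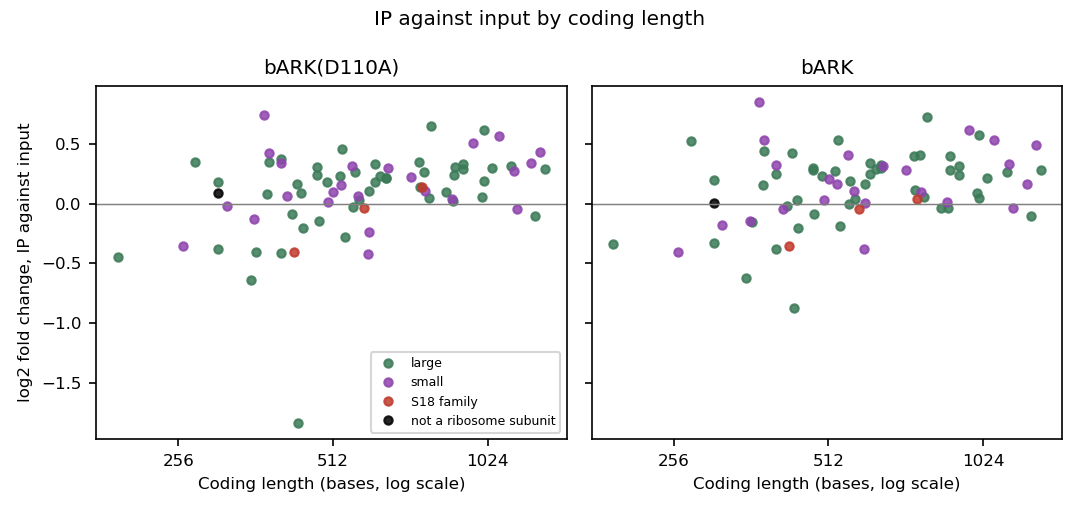
Log2 fold change of IP against input with TMM scaling by coding length in bases (log scale), for bARK(D110A) on the left and bARK on the right, with points coloured by subunit. Genes called lower lie mainly at short lengths, and no member of 756 bases or more was called lower in either construct with TMM. With library size alone the median of all genes lies 0.16 and 0.15 below 0. Among the members named by rule, Mrpl10 was then called lower in bARK(D110A) and Mrpl46 in bARK, and other long members were not looked up singly.

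The genes often lie close to others. Of the 77, 21 (27.3%) start head to head within 500 bases of another protein-coding gene of the GENCODE annotation, against 6.39% of its 21924 protein-coding genes. The latter were not limited to genes with reads here, so the sets are unlike, and whether the excess is particular to the members was not tested. In 1 pair both genes are members, Mrpl46 and Mrps11, and both are counted among the 21. They start 30 bases apart, and neither was called, with Mrpl46 at 0.10 ± 0.05 (SE, adjusted p = 0.0845) and -0.04 ± 0.05 (SE, adjusted p = 0.491). Mrpl46 was called higher in bARK(D110A) with no filter on low counts (0.12) and, at 0.13, without the third or the fourth input or without the first or the second IP, and called lower in bARK (-0.18) with library size alone. Mrps12 and Sars2, the mitochondrial seryl-tRNA synthetase, start 232 bases apart, and Sars2 rose by 0.29 (adjusted p = 0.00698) and 0.51 (adjusted p = 5.52e-05) while Mrps12 was not called. Mrpl54 fell beside Apba3, 26 bases away, which rose by 0.50 (adjusted p = 1.22e-05) and 0.74 (adjusted p = 8.2e-08). Mrps18c fell, and Helq, 29 bases away, fell by 1.01 and by 0.91. Mrpl43 rose by 0.24 and 0.28 while Peo1, the mitochondrial helicase gene 116 bases away, fell by 0.28 and by 0.38. Mrpl43 and Peo1 also share exon bases on opposite strands, so how reads were divided between them is uncertain.

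Exons of 17 members share bases with another protein-coding gene, and the strand setting of the counting was not given. Among the other 60 genes 27 rose and 13 fell in bARK(D110A), with a median of 0.12, and 30 rose and 11 fell in bARK, with a median of 0.13. The shares of all genes tested were 36.5% and 37.2% in bARK(D110A) and 37.6% and 38.1% in bARK.

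Genes that work with the mitochondrial ribosome were set beside the members. For reference, 34.4% of all genes tested rose in both constructs and 34.7% fell in both. Of 6 subunit genes without the family prefix, 5 rose in both constructs: Dap3, the GTP-binding protein of the small subunit, by 0.50 ± 0.04 (SE, adjusted p = 1.25e-08) and 0.44 ± 0.04 (SE, adjusted p = 6.77e-08), and Chchd1, Aurkaip1, Gadd45gip1 and Ict1 by 0.22 to 0.40 in bARK(D110A) and 0.20 to 0.44 in bARK. The calls of Gadd45gip1 in bARK(D110A) and of Ict1 in both constructs were lost with library size alone, and that of Ict1 in bARK also without the fourth bARK input (0.16). Ptcd3, a pentatricopeptide protein of the small subunit, had -0.00 ± 0.04 (SE, adjusted p = 0.99) and -0.03 ± 0.04 (SE, adjusted p = 0.489), and library size alone called it lower (-0.16 and -0.18). Of 16 translation factors 9 rose and 3 fell in both constructs, with the elongation factors Gfm1 (0.69 and 0.64) and Tufm (0.61 and 0.76) and the activator of COX1 translation Taco1 (0.66 and 0.64) highest. The initiation factor Mtif2 fell by 0.19 ± 0.05 (SE, adjusted p = 0.00578) and by 0.18 ± 0.05 (SE, adjusted p = 0.00794), and Guf1 and the formyltransferase Mtfmt fell too.

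Among 25 assembly and rRNA modification genes 13 rose and 3 fell in bARK(D110A) and 13 rose and 2 fell in bARK. Mpv17l2, an inner membrane protein tied to ribosome assembly, rose from 8.39 ± 0.668 to 21.7 ± 1.35 CPM (SD, n = 4) in bARK(D110A), by 1.37 ± 0.09 (SE, adjusted p = 2.16e-10), and by 1.66 ± 0.09 (SE, adjusted p = 1.67e-11) in bARK. No member of the family itself rose that far. The rRNA methyltransferases Nsun4 (0.77 and 0.82) and Mrm1 (0.70 and 0.92) also rose, and Mettl17 (-0.71 and -0.41) and Mterfd1 (-0.34 and -0.31) fell. Of 11 genes for mitochondrial DNA maintenance and transcription 2 rose and 6 fell in bARK(D110A) and 3 and 5 in bARK, with Tfam, which packages mitochondrial DNA, up by 0.21 ± 0.05 (SE, adjusted p = 0.000636) and 0.29 ± 0.05 (SE, adjusted p = 2.12e-05) and Tfb2m down. Library size alone gave Tfam 0.05 in bARK(D110A) and no call. Of 20 mitochondrial aminoacyl-tRNA synthetase genes 9 rose and 4 fell in bARK(D110A) and 9 and 6 in bARK. Beside these lists stand 36.5% higher and 37.2% lower of all genes tested in bARK(D110A), and 37.6% and 38.1% in bARK.

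The cytosolic ribosomal protein genes, taken by symbol and without Rpl22, gave other counts. In bARK(D110A) 3 of 79 rose and 70 fell, with a median of -0.996, and in bARK 4 rose and 68 fell, with a median of -0.85. The 3 that rose in both constructs were Rps27l, Rps4l and Rpl7l1, whose symbols mark them as like another gene of the list. Some levels were low: Rps12 held 3.62 CPM in the bARK(D110A) inputs and 1.01 CPM in the IPs, and Rpl10a 3.30 and 1.05 CPM. How reads of such genes and of any pseudogenes were assigned is uncertain. The nuclear genes for oxidative phosphorylation subunits gave 45 of 83 higher and 15 lower in bARK(D110A), with a median of 0.14, and 46 and 15 in bARK, with a median of 0.20. Within 0.75 of 0 on the log2 scale in both constructs lay 35.4% of the cytosolic ribosomal protein genes and 83.1% of the oxidative phosphorylation genes, beside the 97.4% of the mitochondrial ribosomal protein genes. All genes tested gave 36.5% higher and 37.2% lower in bARK(D110A), and 37.6% and 38.1% in bARK. These counts were not tested against each other.

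bARK was set against bARK(D110A) on ribosomes and in whole tissue, the comparison that asks what attenuated Gq signalling in astrocytes does to these mRNAs. In the 8 IP libraries 0 of the 77 genes and 0% of the 15006 genes tested were called by edgeR, at an unadjusted p below 0.05 stood 5 members and 8.58% of all genes, and DESeq2 and limma-voom called 0 members as well. Log2 fold changes of the members ran from -0.12 to 0.70 with a median of 0.03. The 95% confidence interval lay within 0.25 of 0 for 69 members and within 0.5 for 76, so larger differences than these were outside the intervals of those genes. The exception was Mrpl23, at 0.70 ± 0.32 (SE, adjusted p = 0.583), with an interval of -0.02 to 1.41.

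The members with the smallest p were Mrps10, Mrps14 and Mrpl41. Mrps10, a head protein of the small subunit, stood at 7.96, 7.80, 7.39 and 7.63 CPM in the bARK(D110A) IPs and at 9.01, 8.74, 8.99 and 8.40 CPM in the bARK IPs. These did not overlap, but the difference of 0.18 ± 0.07 (SE, adjusted p = 0.546) did not pass. Mrps14 had 0.14 ± 0.05 (SE, adjusted p = 0.554). Mrpl41, a large subunit protein of the mitochondrial lineage, stood at 36.6, 38.5, 37.8 and 36.8 CPM and 35.8, 36.3, 33.8 and 33.3 CPM with -0.12 ± 0.05 (SE, adjusted p = 0.562). In all, CPM did not overlap for 2 members higher and 1 lower, where 2.95% and 1.27% of all genes did the same.

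In the 8 input libraries 0 members and 0% of 15361 genes were called by edgeR, 1 member and 5.89% of all genes had an unadjusted p below 0.05, and limma-voom called 0. DESeq2 gave no adjusted p for any member here and for 16 of them in the IP libraries, because of its filter on mean counts. Members ran from -0.26 to 0.16 with a median of 0.01, which was -0.0029 without the second bARK input, -0.00044 without the third, 0.0016 without the second bARK(D110A) input and -0.010 with library size alone, and 66 intervals lay within 0.25 of 0 and 76 within 0.5. Mrps27, a pentatricopeptide protein that binds RNA, stood at 12.4, 14.4, 14.1 and 13.3 CPM in the bARK(D110A) inputs and at 14.8, 16.5, 14.9 and 14.4 CPM in the bARK inputs. The groups did not overlap, and the difference of 0.16 ± 0.07 (SE, adjusted p = 0.774) did not pass. Mrpl34 had -0.16 ± 0.07 (SE, adjusted p = 0.774) and Mrpl46 0.11 ± 0.05 (SE, adjusted p = 0.774). No overlap in CPM was seen for 2 members higher (1.93% of all genes) and 0 lower (1.32%).

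**Figure D5:**
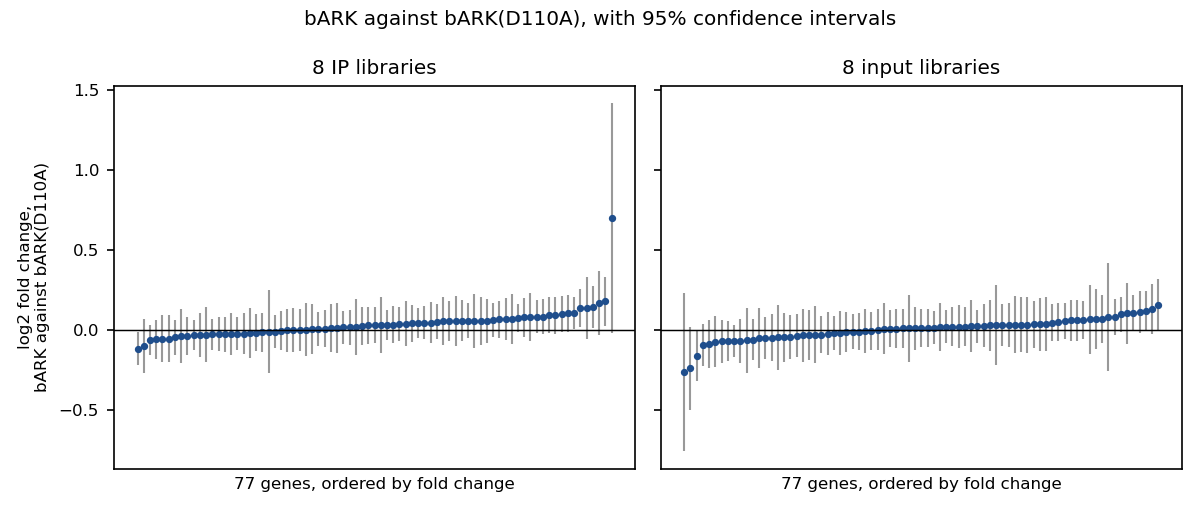
Log2 fold change of bARK against bARK(D110A) for the 77 genes in rising order, with 95% confidence intervals, in the 8 IP libraries (left) and the 8 input libraries (right). None passed, 69 intervals on the left and 66 on the right lie within 0.25 of 0, and the widest on the left, for Mrpl23, reaches 1.41.

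An interaction term asked whether IP enrichment itself differed between the constructs. It called 0 members and 0% of the 15850 genes by edgeR, DESeq2 and limma-voom likewise called 0 members, and 4 members and 6% of all genes (951) had an unadjusted p below 0.05. With the replicate block, which pairs the input and IP of a number, 0 members were called too, and 5 members and 1851 of the 15850 genes had an unadjusted p below 0.05. Its median without the block over the members was 0.03, with 41 intervals within 0.25 of 0 and 75 within 0.5. The smallest p belonged to Mrpl23 (0.96 ± 0.39 (SE, adjusted p = 0.825)), Mrps10 (0.25 ± 0.11 (SE, adjusted p = 0.825)) and Mrps27 (-0.18 ± 0.08 (SE, adjusted p = 0.825)). Mrps10 fell in the IP of bARK(D110A), by 0.24 ± 0.08 (SE, adjusted p = 0.01), a call lost without the first input (-0.18), and had 0.01 ± 0.08 (SE, adjusted p = 0.93) in bARK. Mrps27 rose in both, by 0.34 ± 0.06 (SE, adjusted p = 3.84e-05) and 0.16 ± 0.06 (SE, adjusted p = 0.016), the latter lost with library size alone (0.02), at 1 CPM or more in 4 libraries (0.12), without the fourth input (0.13) and without the third IP (0.14). Calls of 5 members higher in bARK only, 1 higher in bARK(D110A) only, 3 lower in bARK(D110A) only and 1 lower in bARK only therefore do not show that the constructs differed.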

How the data were processed

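RNA was measured in 16 libraries of 4 groups, 4 libraries each. The authors deposited one table of whole-number read counts per gene and library. Per the submitters' processing notes, bcl2fastq 2.17, STAR, HTSeq, limma and build mm10 were used. Other versions, the annotation and the strand setting: not given in the sources used here. Counts of genes with overlapping exons are therefore uncertain. Per the labels' protocols, paired-end libraries came from a Nugen Ovation kit with mRNA enrichment. The table holds 24060 lines for 24058 symbols; 2 symbols, no members, stand on more than 1 line, and 4017 symbols had 0 reads throughout.

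edgeR 4.0.16 in R 4.3.3 was run as robust quasi-likelihood F tests with TMM and filterByExpr at a minimum count of 10, and p-values were adjusted after Benjamini and Hochberg across every gene in the fit, with 0.05 as threshold. IP against input and the interaction came from a fit of all 16 libraries, and the constructs were compared in the 8 IP and, separately, the 8 input libraries. The fits of IP against input in bARK(D110A) and of the constructs in the IP libraries were tried on simulated counts. These had a single fixed spread and changes larger than those of most members. The trial therefore does not cover smaller changes or the other comparisons. Within a construct, the deviations from the group means of input and IP libraries of the same number correlated at 0.15 to 0.53, always above 0.1, so the numbers pair them; the main tests have no block. Replicates differed beyond counting noise. Alternatives were RLE, library size alone, DESeq2 1.42.0, limma-voom (limma 3.58.1), no filter, 1 CPM or more in 4 libraries, the replicate block, fits of other sets of libraries and 48 fits that left out a library. Genes were named by a fixed rule: up to 10 highest and 10 lowest by the smaller of both values among members called in both constructs without overlap, the 3 smallest p where none passed, the 5 highest and lowest by CPM, and 8 by role. The members, lists and motifs were chosen with earlier results of these data known. Gene coordinates, lengths and neighbours come from the GENCODE annotation of GRCm38, the same assembly as mm10, and promoter sequences from RefSeq on GRCm38.p6. Genes named in the promoter, neighbour and exon overlap paragraphs beyond that rule were chosen after their values were seen.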

Additional observations from a re-analysis of the deposited data

Results flagged for a closer look

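In 144 groups of 4 libraries, those of the 35 members named by rule and of their sum, a library was looked for that stands far from the rest of its group by Dixon's criterion, which chance meets in about 1 of 20 groups. There were 2 such values. Mrpl51 stood at 32.8 CPM in the fourth bARK(D110A) input, with the nearest other library at 30.4 CPM. Mrpl41 stood at 29.0 CPM in the first bARK(D110A) input, where the nearest other library held 28.8 CPM and the whole group spanned 28.7 to 29.0 CPM. Both genes rose in the IP of both constructs by more than these gaps.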

How the results depend on the processing

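RLE, DESeq2, limma-voom, no filter, the replicate block and fits of other libraries kept each count of members called higher or lower within 1.5 times the main one. With library size alone, bARK(D110A) had 23 members higher and 23 lower with a median of 0.0067 and bARK 22 lower with a median of 0.025, Mrpl10 reversed in bARK(D110A) to -0.11, and the summed levels were 1721, 1711, 1707 and 1737 CPM in bARK(D110A) input and IP and bARK input and IP. At 1 CPM or more in 4 libraries the bARK median was 0.12. Leaving out a library gave 35 to 43 higher, 12 to 15 lower and medians of 0.14 to 0.20 in bARK(D110A), 39 to 42, 9 to 13 and 0.16 to 0.19 in bARK, and 0 calls elsewhere, with interaction medians of -0.0092 to 0.048 (-0.0052 without the second bARK(D110A) IP, and lowest without the fourth bARK input), 0.019 to 0.043 in the IP libraries and -0.0029 to 0.020 in the inputs. The cause of these moves was not tested. The replicate block gave 38 higher and 14 lower in bARK(D110A) and 42 and 14 in bARK and 0 members called elsewhere. Counts at an unadjusted p below 0.05 moved more. In the IP libraries 5 members had one, against 3 with DESeq2, library size alone or the block and 1 to 5 without a library. In the inputs 1 member had one, against 5 in the fit of all 16 libraries, 2 with RLE, library size alone or 1 CPM or more in 4 libraries, 0 with DESeq2, limma-voom or no filter and 0 to 4 without a library. For the interaction these were 4 members, 3 to 5 under these settings and 1 to 7 without a library, and 951 genes against 1851 with the block. Numbers shared across constructs did not pair libraries (correlations of -0.20 to 0.07), and the block on them left 0 members called. DESeq2 called 35 genes higher and 12 lower in the IP libraries and 7 higher in the inputs, where edgeR called 0, with no member among them. Depth limits Mrpl23, with 10 to 49 reads a library.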
